A study of Homo sapiens with 15 samples.

Results

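The genes described here are the D-type cyclins CCND1, CCND2 and CCND3, cyclin E1 (CCNE1), and 6 inhibitors of cyclin-dependent kinases, namely CDKN1A, CDKN1B and CDKN1C of the CIP/KIP family and CDKN2A, CDKN2B and CDKN2C of the INK4 family. They were chosen by gene symbol through the GENCODE v44 identifiers of the table rows, and all 10 were found among the 48777 genes listed. Bulk RNA-seq of total RNA depleted of ribosomal RNA followed the human embryonic stem cell line H1 (an established line) with 3 biological replicates on each of days 0, 4, 9, 11 and 20. The undifferentiated cells of day 0 were kept in Nutristem medium, and every library is labelled as grown on LN-521 with LN-221, laminins of stem cell and heart muscle basement membrane respectively, although the deposited sample table lists LN-521 alone for day 0. The GSK3 inhibitor CHIR99021, which activates Wnt signalling, was added on day 4 and removed the next day, and the Wnt secretion inhibitor IWP2 was present from day 7 to day 9. The growth text of the labels instead places CHIR99021 on days 1 and 3 and IWP2 on day 5. The medium was RPMI with B27, without insulin up to day 9 in the labels. The labels give day 9 where the methods list day 7, and the labels were followed. All libraries come from wells of 1 cell line, so the tests measure the spread between wells and not between donors.

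Reads counted on genes lay between 11990302 and 33469703 per library. On day 0 the summed level of 6 pluripotency markers was 6095 to 8829 TPM (a level per transcript length and library depth) and that of 6 cardiomyocyte markers 9.45 to 12.4 TPM, and on day 20 these levels were 97.8 to 132 TPM and 3717 to 15655 TPM. Day 20 was mixed, since 6 yolk sac and endoderm markers summed to between 624 and 18373 TPM and 6 mesenchymal markers to between 1198 and 24359 TPM. All 12 of these genes reached 1 TPM in at least 1 day 20 library. So did all 4 neural and all 4 blood markers, with sums of at most 17.5 and 18.3 TPM, so reaching 1 TPM does not separate cell types. The day 20 library labelled plate 2_3 stood apart, with an RNA integrity number of 6.1 against 8.8 to 10 in the others and with reads on 48230 genes against at most 39551 elsewhere. Several results that rest on day 20 are therefore also given without it. The day 20 fold changes of CDKN2A, CDKN2C, other named genes and the gene lists are given only with it.

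Cells pass from G1 into S phase when a D-type cyclin binds CDK4 or CDK6 and the kinase phosphorylates the retinoblastoma protein, which frees E2F factors to switch on genes for DNA replication, cyclin E among them. INK4 proteins bind CDK4 and CDK6 and keep the D-type cyclins away, whereas CIP/KIP proteins bind whole cyclin-CDK complexes and inhibit mainly those of CDK2. Embryonic stem cells are known for a short G1 phase with little inhibitor, and heart muscle cells for leaving the cell cycle as they mature. In bulk RNA, more cells that express a gene and more RNA per cell cannot be told apart.

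Per length, the cyclins stood above most of the inhibitors on day 0. CCND2 was highest of the 10 genes at 124 ± 42.8 TPM (SD, n = 3), followed by CCND1 at 97.3 ± 32.3 TPM, CCNE1 at 60.3 ± 31.9 TPM, CDKN1C at 56.0 ± 35.8 TPM and CDKN1B at 47.7 ± 14.1 TPM, and the replicate ranges of each neighbouring pair in this order overlapped. CCND3 at 15.2 ± 2.30 TPM and CDKN1A at 9.83 ± 1.00 TPM came next, each with a range below that of the gene before it, and the INK4 genes were all under 0.36 TPM in every library. On day 20 the order began with CDKN1C at 302 ± 254 TPM, CCND2 at 277 ± 84.6 TPM and CDKN1A at 258 ± 239 TPM, whose ranges overlapped. CDKN1B followed at 106 ± 14.8 TPM, CCND1 at 83.9 ± 35.6 TPM, CCNE1 at 33.2 ± 22.8 TPM, CCND3 at 24.3 ± 13.9 TPM and CDKN2B at 15.4 ± 3.05 TPM. CDKN1A thus had rank 7 of the 10 genes on days 0 and 4, rank 6 on days 9 and 11 and rank 3 on day 20.

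Over all 5 days together, edgeR's F test called 6 of the 10 genes at an adjusted p-value under 0.05, where it called 50.4% of the 24767 genes tested. These were CDKN2B (adjusted p = 7.18e-07), CDKN1A (3.93e-05), CDKN2C (0.000213), CDKN2A (0.00113), CDKN1B (0.00515) and CCND2 (0.0154), and the other genes stood at 0.0709 for CDKN1C, 0.190 for CCND1, 0.274 for CCNE1 and 0.291 for CCND3. The INK4 genes, at 0 to 10 reads per library on days 0 and 4, passed the filter on low counts only through later days. The filter itself thus favoured a difference for them, and nothing is read from the count of 6. The plot of CPM by library shows the levels behind these tests, in CPM, read counts set relative to library depth with edgeR's TMM factors.

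**Figure D1:**
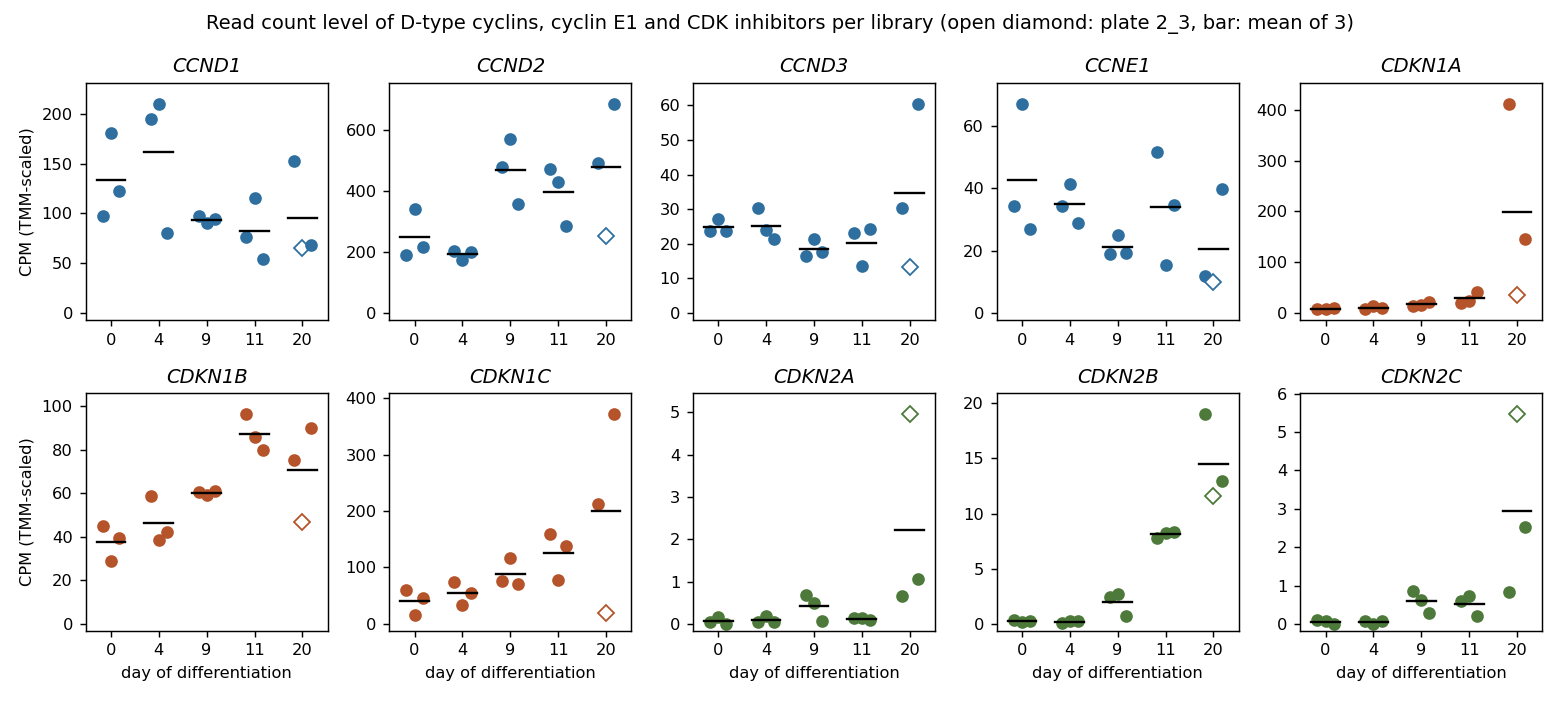
Level of each of the 10 genes in every library, in TMM-scaled CPM on a linear axis of its own in each panel, against the day of differentiation (evenly spaced). Points are libraries, bars are means of 3, and the open diamond is the day 20 library labelled plate 2_3. CDKN2B stood between 0.0669 and 0.363 CPM on days 0 and 4 and between 11.6 and 19.0 CPM on day 20, whereas CCND1 spanned 54.1 to 210.2 CPM with overlap between the days.

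Between adjacent days, the calls on these genes fell in the step from day 4 to day 9, in which the treatment schedule places CHIR99021 and IWP2. Day 4 against day 0 gave 0 calls among the 7 genes that passed the filter on low counts, as it did for all genes (background 0% of 20964), with 741 genes at an unadjusted p-value under 0.05 (3.53%) and none of the 7 among them. Their replicates overlapped in all 7 cases, against 10% of all genes without overlap. Day 9 against day 4 gave 4 calls among 8 genes tested, 3 higher and 1 lower, which is close to the background of 49% of all genes (24.3% higher and 24.7% lower), and 7 of the 8 had an unadjusted p-value under 0.05 (background 56.1%). The replicates of these days did not overlap for 5 of the 8 genes, against 60% of all genes. Day 11 against day 9 gave 0 calls among 9 (background 2.39%, of which 1.39% higher), with 2 genes whose replicates did not overlap (background 24.1%) and 3 at an unadjusted p-value under 0.05 (background 17%). Day 20 against day 11 gave 0 calls among 10 (background 1.55%, of which 1.12% higher), with 3 genes without overlap (background 22.4%) and 4 at an unadjusted p-value under 0.05 (background 16.7%). Day 20 against day 0 gave 4 calls among 10, all of them higher, where 16.1% of all genes were called higher and 27.4% in either direction, and 5 of the 10 did not overlap (background 46.7%). Of these 4, CDKN2A, CDKN2B and CDKN2C passed the filter only through the day 20 libraries, as CDKN2B did through day 9 in the comparison with day 4. Their direction was fixed by the filter, and the counts are a description. CDKN1A was the called gene that also passed the filter in every other comparison.

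**Figure D2:**
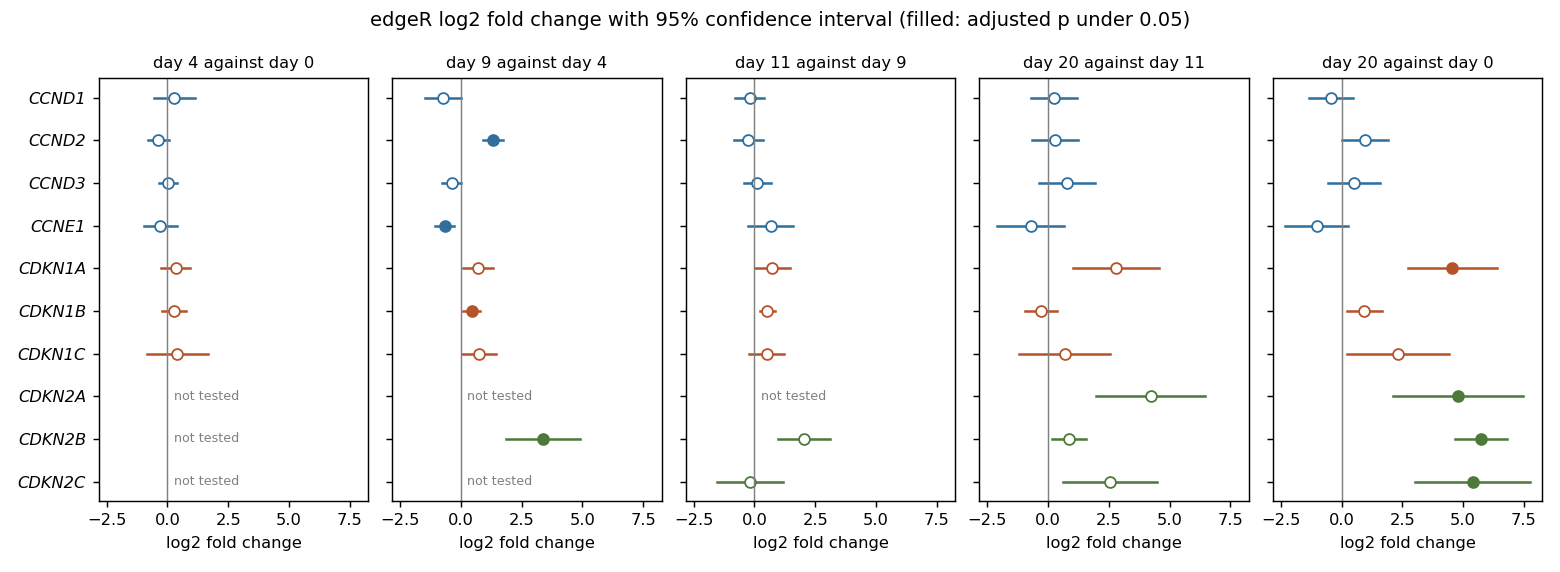
Log2 fold change of each gene in each comparison (x axis) from edgeR, with its 95% confidence interval, and filled points where the adjusted p-value is under 0.05. Blue marks cyclins, orange CIP/KIP genes and green INK4 genes, and genes below the filter on low counts are marked as not tested. The filled points are CCND2, CCNE1, CDKN1B and CDKN2B on day 9 against day 4 and CDKN1A, CDKN2A, CDKN2B and CDKN2C on day 20 against day 0, and the sizes shown for CDKN2A and CDKN2C rest on 0 to 5 reads per day 0 library.

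CCND2, on chromosome 12 of GRCh38 from 4269771 to 4305353 on the plus strand, was the D-type cyclin called higher in a reported fit. It stood at 205, 176 and 201 CPM in the day 4 libraries of plates 1, 2 and 5. On day 9 it stood at 478 CPM in plate 2, 571 CPM in plate 6_1 and 357 CPM in the library with no plate number. Every day 9 library was above every day 4 library, and the rise was 2.51-fold (log2 fold change 1.33, SE 0.18, adjusted p = 0.000498 from edgeR). The call stood under all 14 alternatives that could be fitted, with log2 fold changes from 1.18 to 1.51. Day 11 gave 474, 432 and 286 CPM in plates 2, 5 and 6, and the difference from day 9 was smaller than the spread between replicates (log2 fold change −0.25, 95% interval −0.86 to 0.35, adjusted p = 0.687 from edgeR). Day 20 gave 494, 255 and 688 CPM in plate 2, plate 2_3 and plate 6_1, against 192, 343 and 216 CPM in the day 0 libraries numbered 1, 2 and 3. In CPM the library labelled 2_3 lay inside the day 0 range and the other pair above it. In TPM that library stood at 198, above the day 0 maximum of 173, so this overlap depends on the scale. The log2 fold change was 0.97 (SE 0.41, adjusted p = 0.114 from edgeR), and it became 1.25 (adjusted p = 0.0154 from edgeR) without the library labelled 2_3.

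CCND1, on chromosome 11 from 69641156 to 69654474, is the D-type cyclin best known as a target of growth factor and Wnt signalling. It stood at 195, 210.2 and 80.5 CPM in the day 4 libraries of plates 1, 2 and 5, and at 96.9, 89.9 and 94.0 CPM in the day 9 libraries. The day 4 library of plate 5 was below all 3 day 9 libraries and the other pair far above them. The log2 fold change on day 9 was −0.73 (SE 0.32, adjusted p = 0.0909 from edgeR), and without the day 4 library of plate 5 it was −1.06 (adjusted p = 0.000990 from edgeR). No other comparison of CCND1 passed the threshold in the reported fits, although day 11 against day 9 did with the plate as a block (−0.57, adjusted p = 0.0354 from edgeR, against −0.21 and 0.750 without it). Its log2 fold change between days 0 and 20 was −0.44 (95% interval −1.35 to 0.46). Exons of CCND1 overlap those of LTO1 on the opposite strand over 497 bases, and while the library kit keeps strand, how featureCounts treated it is unknown.

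CCND3, on chromosome 6 from 41934934 to 42050357 on the minus strand, is the D-type cyclin best known from blood cells. It was the lowest of the D-type cyclins per length, with means between 12.1 TPM on day 9 and 24.3 TPM on day 20. Its day 20 libraries spanned 30.3, 13.3 and 60.5 CPM in plate 2, plate 2_3 and plate 6_1, in CPM from below to above every earlier library. The lower end was close, at 13.7 CPM in plate 5 of day 11. In TPM that day 11 library stood at 9.33, below the 12.7 of the library labelled 2_3. No comparison of CCND3 passed the threshold.

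The make-up of the D-type cyclins per length followed from these levels. CCND2 made 50.6% to 53.3% of their summed TPM in the day 0 libraries and 34.0% to 58.0% in those of day 4, and then 68.9% to 78.1% on day 9, 69.6% to 77.1% on day 11 and 65.1% to 79.7% on day 20. Within a library, the ratio of CCND2 to CCND1 in TPM was 0.712, 0.564 and 1.68 in the day 4 libraries of plates 1, 2 and 5, and 3.33, 4.28 and 2.56 in the day 9 libraries of plate 2, plate 6_1 and no plate number. All day 9 ratios were above all day 4 ratios, with geometric means of 3.32 and 0.878 (exact two-sided permutation test of the log2 ratio, p = 0.1, the smallest that 3 replicates against 3 allow, and 0.25 after Benjamini-Hochberg adjustment over 5 comparisons). The geometric mean stayed near this level on days 11 and 20, at 3.36 and 3.40, and day 20 was separate from the 1.27 of day 0 in the same way (exact p = 0.1, adjusted 0.25). The plot of summed TPM by family shows these shares beside those of the inhibitors.

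**Figure D3:**
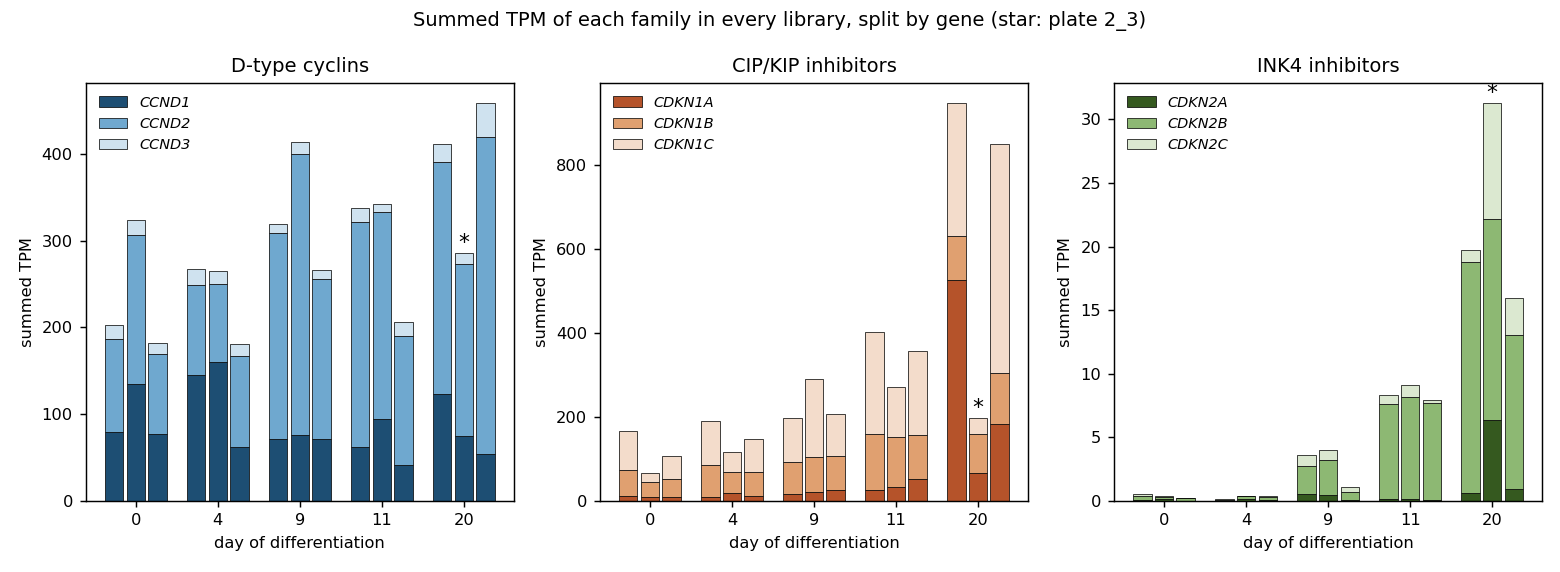
Summed TPM of the D-type cyclins, the CIP/KIP inhibitors and the INK4 inhibitors in each library (stacked bars, split by gene, 3 libraries per day, each panel with its own axis from 0), with a star on the day 20 library labelled plate 2_3. The CCND2 part of the first panel grows from day 9, the CDKN1A part of the second is largest in the day 20 libraries of plates 2 and 6_1, and the third panel is nearly empty on days 0 and 4.

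CCNE1, the cyclin E gene that pairs with CDK2, lies on chromosome 19 from 29811991 to 29824312. It was the 1 gene of the 10 called lower in a reported fit, on day 9 against day 4. It stood at 34.4, 41.4 and 29.0 CPM in the day 4 libraries of plates 1, 2 and 5, and at 19.1, 25.1 and 19.4 CPM in the day 9 libraries of plate 2, plate 6_1 and no plate number. No day 9 library reached the day 4 range, and the level on day 9 was 0.630 of that on day 4 (log2 fold change −0.67, SE 0.17, adjusted p = 0.0115 from edgeR). The call was lost with all 15 libraries in one fit (adjusted p = 0.327). On day 11 CCNE1 spread from 15.5 CPM in plate 5 to 51.8 CPM in plate 2, with 34.7 CPM in plate 6, across the whole range of days 4 and 9. On day 20 it stood at 12, 10.0 and 39.8 CPM in plate 2, plate 2_3 and plate 6_1. Against day 0 the log2 fold change was −1.02 (SE 0.57, adjusted p = 0.221 from edgeR), and it was −1.96 (adjusted p = 0.0219 from edgeR) without the day 20 library of plate 6_1.

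The CIP/KIP genes code for p21 (CDKN1A), p27 (CDKN1B) and p57 (CDKN1C). Their summed level was 66.7 to 167 TPM on day 0, 197 to 290 TPM on day 9, 271 to 401 TPM on day 11 and 198 to 948 TPM on day 20. CDKN1A made 6.37% to 13.1% of that sum on day 0 and 21.4% to 55.4% on day 20. The promoters of CDKN1A and CDKN1B are shown because these genes varied over the days while their starts differ in their sequence elements. Each sequence is the 250 bases before the start site in RefSeq on GRCh38.p14, 5′ to 3′ on the strand of the gene, with GC boxes (GGGCGG) and CCAAT boxes of either strand in capitals. RefSeq start windows were matched for 7 of the 10 genes, and CCND1, CCND2 and CDKN1C were not among them.
CDKN1A, chr6:36678464-36678713, plus strand: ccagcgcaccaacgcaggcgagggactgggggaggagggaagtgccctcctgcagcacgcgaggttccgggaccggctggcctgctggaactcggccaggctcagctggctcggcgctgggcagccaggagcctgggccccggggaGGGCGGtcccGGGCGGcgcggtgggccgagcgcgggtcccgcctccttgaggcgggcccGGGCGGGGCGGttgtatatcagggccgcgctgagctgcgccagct
CDKN1B, chr12:12717118-12717367, plus strand: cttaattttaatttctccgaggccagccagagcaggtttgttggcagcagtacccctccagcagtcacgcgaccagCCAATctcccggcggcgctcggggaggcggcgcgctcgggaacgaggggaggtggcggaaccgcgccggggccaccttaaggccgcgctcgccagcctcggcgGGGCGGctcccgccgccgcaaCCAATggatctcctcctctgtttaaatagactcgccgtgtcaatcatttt
The window of CDKN1A holds 4 GC boxes and no CCAAT box, and that of CDKN1B 1 GC box and 3 CCAAT boxes, of which 1 lies 31 bases past the start. Over windows of 300 bases around 35116 starts, 45.0% held a GC box and 34.6% a CCAAT box. E2F sites (TTTCGCGC, TTTGGCGC or TTTCCCGC, held by 2.74% of all windows) and a TATAAA box (11.5%) had no match in any of the 12 windows of these genes. Only exact matches to these letters were searched, and variant sites were not looked for.

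CDKN1A, on chromosome 6 from 36676460 to 36687337, stood at 8.16, 7.37 and 10.1 CPM in the day 0 libraries. On day 20 it stood at 412 CPM in plate 2, 36.1 CPM in plate 2_3 and 146 CPM in plate 6_1. All 3 were above every day 0 library, and they differed among themselves by more than any earlier day. The rise was 23.4-fold (95% interval 6.58 to 83.4, log2 fold change 4.55, SE 0.80, adjusted p = 0.00497 from edgeR), and it passed the threshold under all 13 alternatives, with log2 fold changes from 3.38 to 5.04. The lowest came without the day 20 library of plate 2 (3.38, adjusted p = 0.00459 from edgeR). On days 4, 9 and 11 the means were 10.9, 17 and 28.6 CPM. Day 9 against day 4 gave a log2 fold change of 0.71 (SE 0.27, adjusted p = 0.0561 from edgeR), which passed under 5 of 14 alternatives (adjusted p from 0.0134 to 0.454 over all of them), among them leaving out the day 4 library of plate 2 (0.98, adjusted p = 0.0225) or the day 9 library of plate 6_1 (0.81, adjusted p = 0.0430). Day 11 libraries stood at 19.1, 24.4 and 42.2 CPM, and in CPM the last of these was above the day 20 library labelled 2_3. In TPM the order of that pair was the reverse, with 51.5 in plate 6 of day 11 and 65.7 in the library labelled 2_3. Against day 11, day 20 gave a log2 fold change of 2.80 (SE 0.77, adjusted p = 0.117 from edgeR), or 3.29 (adjusted p = 0.0426 from edgeR) without that library and 1.66 (adjusted p = 0.176 from edgeR) without the day 20 library of plate 2.

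CDKN1B, on chromosome 12 from 12685498 to 12722369, codes for an inhibitor that accumulates in resting cells and differed little between the day 9 replicates. It stood at 58.5, 38.4 and 42.1 CPM in the day 4 libraries, at 60.7, 59.1 and 61.0 CPM in those of day 9 and at 96.2, 85.8 and 79.9 CPM in those of day 11. Each of these days lay wholly above the one before it. The rise on day 9 was 1.35-fold (log2 fold change 0.43, SE 0.16, adjusted p = 0.0487 from edgeR), close to the threshold, and the call was lost under 11 of 14 alternatives, among them leaving out any of the 6 libraries except the day 4 library of plate 1 (adjusted p from 0.0636 to 0.175). Day 11 against day 9 gave 0.52 (SE 0.13, adjusted p = 0.0946 from edgeR). On day 20 CDKN1B stood at 75.2, 46.7 and 89.9 CPM against 45.0, 28.7 and 39.2 CPM on day 0, with no overlap and a log2 fold change of 0.94 (SE 0.32, adjusted p = 0.0588 from edgeR), or 1.14 (adjusted p = 0.0124 from edgeR) without the library labelled 2_3.

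CDKN1C, on chromosome 11 from 2883213 to 2885775 on the minus strand, is an imprinted gene that is read mainly from the maternal copy and restrains growth in the embryo. It stood at 60.3, 15.2 and 45.8 CPM on day 0, and at 212, 18.6 and 371 CPM in the day 20 libraries of plate 2, plate 2_3 and plate 6_1. In CPM the library labelled 2_3 lay near the bottom of the day 0 range and the other pair above every library of days 0 to 11. In TPM the library labelled 2_3 stood at 40.0, within the 21.2 to 92.7 of day 0. The log2 fold change was 2.32 (SE 0.92, adjusted p = 0.0960 from edgeR), or 2.85 (adjusted p = 0.00725 from edgeR) without that library and 1.51 (adjusted p = 0.277 from edgeR) without the day 20 library of plate 6_1. Day 9 against day 4 gave 0.73 (SE 0.30, adjusted p = 0.0811 from edgeR), or 1.01 (adjusted p = 0.0382 from edgeR) without the day 4 library of plate 1. KCNQ1OT1, the long RNA of the same imprinted domain that silences CDKN1C on the paternal copy, had a log2 fold change of 0.29 between days 0 and 20 (SE 0.33, adjusted p = 0.558 from edgeR), and KCNQ1, which lies in the same domain, rose 6.05-fold (log2 fold change 2.60, SE 0.51, adjusted p = 0.00797 from edgeR).

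The day 20 libraries also differed in their cell markers. In plate 2, plate 2_3 and plate 6_1 the yolk sac and endoderm markers summed to 16344, 624 and 18373 TPM, the mesenchymal markers to 3173, 1198 and 24359 TPM and the cardiomyocyte markers to 15655, 14720 and 3717 TPM. The library labelled 2_3, which was low in the first pair of lists, was also the lowest of day 20 for 8 of the 10 genes in CPM, and the highest for CDKN2A and CDKN2C. In TPM, the scale of these marker sums, it was not the lowest for CCND1 (75.1 against 53.6 in plate 6_1). Nor was it for CCNE1 (21.8 against 18.3 in plate 2) or CDKN2B (15.8 against 12.1 in plate 6_1). Its part in the day 20 levels, and that of the cell types in each library, was not tested.

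The INK4 genes CDKN2A and CDKN2B lie side by side on chromosome 9 on the minus strand, from 21967752 to 21995301 and from 22002903 to 22009305, with 7601 bases between them, and CDKN2C lies on chromosome 1 from 50960745 to 50974634. CDKN2B codes for p15, a gene known to respond to TGF-beta, CDKN2A for p16 and, from an upstream first exon, for p14ARF, and CDKN2C for p18. The starts of CDKN2B and of the p16 transcript are shown because these neighbours were both read at close to 0 on day 0 and then differed in level, again with GC boxes in capitals.
CDKN2B, chr9:22009306-22009555, minus strand: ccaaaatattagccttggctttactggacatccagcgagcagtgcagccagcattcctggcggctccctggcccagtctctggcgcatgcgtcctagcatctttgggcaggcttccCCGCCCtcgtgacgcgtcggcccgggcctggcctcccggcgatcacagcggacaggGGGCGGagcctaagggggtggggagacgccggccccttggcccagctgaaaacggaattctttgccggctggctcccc
CDKN2A (p16 start), chr9:21974858-21975107, minus strand: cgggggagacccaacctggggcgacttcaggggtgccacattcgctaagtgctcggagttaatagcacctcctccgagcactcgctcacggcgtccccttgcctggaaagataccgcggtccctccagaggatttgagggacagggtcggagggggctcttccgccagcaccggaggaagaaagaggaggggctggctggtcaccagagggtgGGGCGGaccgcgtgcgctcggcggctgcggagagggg
Both windows hold 2 GC boxes, of which the p16 window has 1 past the start, and no CCAAT box.

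CDKN2B had the widest range of day means among the 10 genes on the log2 scale. Its levels were far below those of the cyclins. It had 10, 6 and 3 reads in the day 0 libraries and 2, 5 and 7 reads in those of day 4. On day 9 it had 43 reads in plate 2, 61 in plate 6_1 and 20 in the library with no plate number. Every day 9 library was above every day 4 library, with 1.98 ± 1.09 CPM against 0.20 ± 0.121 CPM (SD, n = 3) and a log2 fold change of 3.37 (SE 0.66, adjusted p = 0.00360 from edgeR, with 1.20 to 3.82 over 14 alternatives, the lowest with limma on log2(TPM + 1)). On day 11 the 3 libraries lay close together, at 179, 170 and 193 reads or 7.78, 8.28 and 8.29 CPM, all above day 9 (log2 fold change 2.03, SE 0.46, adjusted p = 0.0675 from edgeR, and past the threshold under 4 of 15 alternatives). On day 20 the counts were 458, 252 and 219 in plate 2, plate 2_3 and plate 6_1, or 19.0, 11.6 and 12.9 CPM, again above every day 11 library (log2 fold change 0.86, SE 0.30, adjusted p = 0.194 from edgeR). From day 0 to day 20 the rise was 53.3-fold (95% interval 25.2 to 112, log2 fold change 5.74, SE 0.47, adjusted p = 0.000302 from edgeR). In this comparison CDKN2B passed the filter on low counts only through the day 20 libraries. On day 9 against day 4 it passed only through those of day 9. The adjusted p-values of both comparisons are therefore descriptions and not tests of a difference. Between days 0 and 20, all 13 alternatives kept the value under the threshold. Their log2 fold changes were 3.71 with limma on log2(TPM + 1), a scale that understates the change of low genes, and 5.45 to 5.97 otherwise.

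CDKN2A had 1, 5 and 0 reads in the day 0 libraries, 1, 4 and 1 on day 4, and 12, 11 and 2 on day 9. On day 11 it had 3, 3 and 2 reads, and on day 20 it had 16 in plate 2, 108 in plate 2_3 and 18 in plate 6_1. It passed the filter on low counts only through the day 20 libraries, where it is high. The adjusted p of 0.0179 against day 0 from edgeR is therefore a description and not a test of a difference. That value was above the threshold under 4 of 13 alternatives, namely without the day 0 library numbered 1 (0.0807), 2 (0.0514) or 3 (0.0735) and with limma on log2(TPM + 1) (0.109). Against day 11 it was 0.0769.

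CDKN2C had 3, 2 and 0 reads on day 0, 2, 0 and 2 on day 4, 15, 14 and 8 on day 9, and 14, 15 and 5 on day 11. On day 20 it had 20 reads in plate 2, 119 in plate 2_3 and 43 in plate 6_1, each more than any earlier library. Against day 0 it also passed the filter only through day 20. The adjusted p of 0.00703 from edgeR is again a description, with 0.0534 without the day 0 library numbered 2. As CDKN2A and CDKN2C were read at 0 to 5 reads per library on day 0, their fitted fold changes against it depend on the prior count of the fit and are not read as sizes.

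The day 20 reads of these genes were set against the reads on 252 autosomal protein-coding genes of at least 2000 exon bases that had at most 2 reads over days 0 to 11 together. Such genes had a median of 0 reads per kb in plate 2, 7.19 in plate 2_3 and 0.405 in plate 6_1. At these rates the library labelled 2_3 would hold 27.9 reads on CDKN2A, 28.7 on CDKN2B and 21.7 on CDKN2C, or 25.8%, 11.4% and 18.2% of what was counted. With the expected reads taken off, the day 20 means moved from 2.23 to 1.77 CPM for CDKN2A, from 14.5 to 14.0 CPM for CDKN2B and from 2.94 to 2.59 CPM for CDKN2C.

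**Figure D4:**
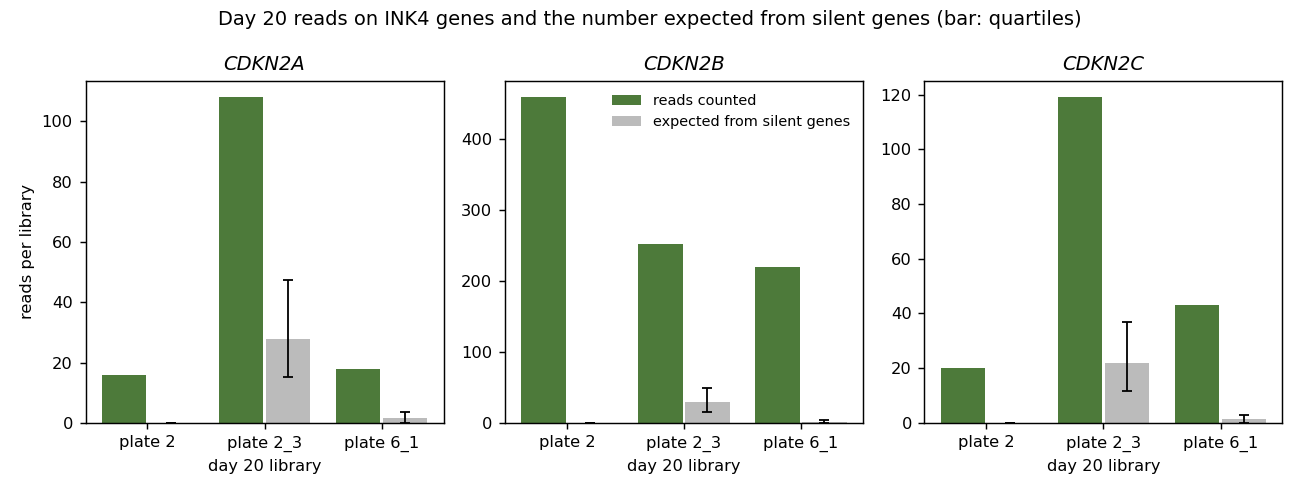
Reads on the INK4 genes in the 3 day 20 libraries (green) and the number expected from the median reads per kb of 252 silent genes in the same library (grey, with the quartiles over those genes as error bars), each panel with its own axis from 0. In the library labelled plate 2_3 the expected numbers are 27.9 of 108, 28.7 of 252 and 21.7 of 119 reads for CDKN2A, CDKN2B and CDKN2C.

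The neighbours of the INK4 genes on chromosome 9 were read as follows. CDKN2B-AS1 (ANRIL), a long RNA of the opposite strand, had 0 or 1 read in each library of days 0 and 4 and 1 read in each of day 9. It had 1 to 8 reads on day 11 and 17 to 90 on day 20, and these were not set against the silent genes. Between days 0 and 20 it passed the filter on low counts only through the day 20 libraries. The adjusted p of 0.00562 from edgeR is therefore a description and not a test of a difference. Its exons overlap those of CDKN2A over 593 bases, and reads there cannot be told apart without the strand setting. MTAP, a metabolic enzyme gene next to CDKN2A, fell over the same days (log2 fold change −1.19, SE 0.30, adjusted p = 0.0200 from edgeR). CDKN2A and CDKN2B were the 1 pair among the 45 pairs of these genes that share any run of 75 bases in their transcripts, so reads of the other genes could not be split between members of the set at that length.

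The kinases that these proteins bind did not move alike. CDK6 rose from a day 4 mean of 10.1 ± 3.03 TPM to a day 9 mean of 71.7 ± 42.3 TPM (SD, n = 3), or 7.02-fold (log2 fold change 2.81, SE 0.39, adjusted p = 0.000816 from edgeR), and on day 20 it was above day 0 with a log2 fold change of 2.35 (SE 0.43, adjusted p = 0.00594 from edgeR). CDK4, with means from 57.9 TPM on day 20 to 89.3 TPM on day 4, had log2 fold changes of −0.10 on day 9 against day 4 (SE 0.16, adjusted p = 0.653 from edgeR) and −0.71 on day 20 against day 0 (SE 0.38, adjusted p = 0.203 from edgeR). CDK2 stood between 24.9 TPM on day 0 and 41.8 TPM on day 20 and passed the threshold in no comparison. On day 9 CDK6 and CCND2 were thus both higher than on day 4, and CDK4 was not called. RB1, the retinoblastoma gene, rose on day 9 (log2 fold change 0.42, SE 0.10, adjusted p = 0.00917 from edgeR) and was higher on day 20 than on day 0 (1.1, SE 0.24, adjusted p = 0.0117 from edgeR). CCNE2, the other cyclin E, rose on day 9 (1.06, SE 0.25, adjusted p = 0.00775 from edgeR) in the comparison in which CCNE1 fell. CDKN2D (p19), the other INK4 gene, was lower on day 9 (−1.05, SE 0.29, adjusted p = 0.0158 from edgeR) and had a log2 fold change of 1.19 between days 0 and 20 (SE 0.42, adjusted p = 0.0671 from edgeR).

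Of a list of 25 G1/S partners, 5 were higher and 5 lower on day 9 than on day 4, where 24.3% and 24.7% of all genes were, and the median log2 fold change was 0.0024 beside 0.013 for all genes. The largest change after those of CDK6, CCNE2 and CDKN2D was in CDC25A (−0.98), the phosphatase that activates CDK2. On day 20 against day 0, 3 of the 25 were higher and 4 lower (16.1% and 11.3% of all genes) with a median of −0.49 beside 0.11. Here RBL2, a relative of RB1, was higher (1.22), and CDC25A (−2.33), the CDK subunit CKS1B (−1.46) and cyclin A2 (CCNA2, −1.24) were lower. No gene of this list was called in the other comparisons.

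Proliferation genes moved mostly down. Of 20 genes that code for replication and mitosis proteins, 17 were lower and 1 higher on day 9 than on day 4 (24.7% and 24.3% of all genes), with a median log2 fold change of −0.74 beside 0.013 for all genes. The largest decreases were in CENPF (−1.47), BUB1 (−1.41) and MCM5 (−1.01), and TYMS was the gene that was higher (0.54). On day 20 against day 0, 17 of the 20 were lower and none higher (11.3% and 16.1% of all genes) with a median of −1.79 beside 0.11, led by MCM5 (−3.0), CDC20 (−2.33), CENPF (−2.33) and MCM2 (−2.25). Their summed TPM was 2953 to 4350 on day 0 and 760, 2002 and 1129 in the day 20 libraries of plate 2, plate 2_3 and plate 6_1. The day 20 library with the most CDKN1A, plate 2, had the lowest sum, and the library with the least CDKN1A, 2_3, had the highest. In CPM, 2_3 was also the lowest of day 20 for CCND1, CCND2, CCND3 and CCNE1. In TPM, the scale of the proliferation sums, this held for CCND2 and CCND3 but not for CCND1 and CCNE1. The order of the day 20 libraries was not tested. Neither day 11 against day 9 nor day 20 against day 11 gave a call in this list, although all 20 log2 fold changes of the latter were negative.

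**Figure D5:**
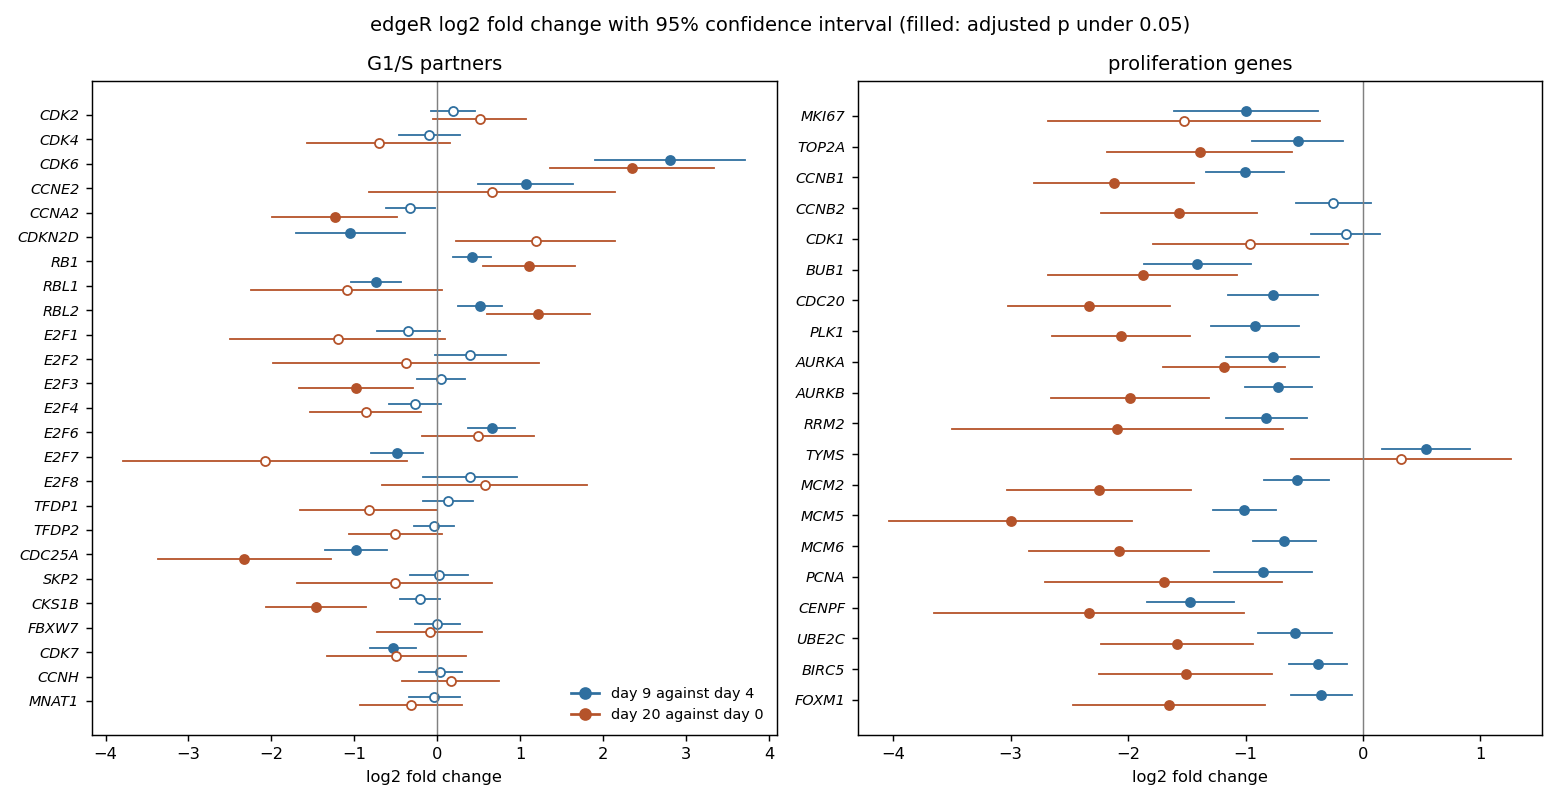
Log2 fold change (x axis) with 95% confidence interval from edgeR for the 25 G1/S partner genes and the 20 proliferation genes, on day 9 against day 4 (blue) and day 20 against day 0 (orange), with filled points where the adjusted p-value is under 0.05. CDK6 stands apart on the right at 2.81 and 2.35 in the left panel, and 17 of 20 points of each colour are filled on the left of 0 in the right panel.

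CDKN1A is the classic target of p53, and 22 other p53 target genes were read beside it. On day 9 against day 4, 6 were higher and 8 lower, where 24.3% and 24.7% of all genes were, with a median log2 fold change of −0.18 beside 0.013. BTG2 (3.25), GADD45A (3.22) and PLK2 (2.94), which restrain growth or respond to stress, were higher, and FAS (−1.66), the death receptor, was lower. On day 11 against day 9 PLK2 alone of the 22 was called (1.74, higher), and on day 20 against day 11 none was. On day 20 against day 0, 6 were higher and 1 lower (16.1% and 11.3% of all genes) with a median of 0.0094 beside 0.11 for all genes. These were BTG2 (3.70), GADD45A (3.42), PLK2 (3.20), ZMAT3 (2.95), TP53INP1 (2.05) and SESN1 (0.83), and the lower gene was BAX (−1.21), which promotes cell death. The mean of GADD45A was 10.4 ± 0.591 TPM for day 4 and 95.6 ± 11.0 TPM for day 9 (SD, n = 3), whereas CDKN1A stood at 13.1 ± 4.30 and 20.9 ± 4.83 TPM on the same days.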

How the data were processed

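The analysis used the deposited tables of 15 libraries of H1 cells, 3 for each day. The authors used STAR 2.5.2b to align the reads to GRCh38 (Ensembl release 79), took counts per gene with featureCounts 1.5.1, left out mitochondrial and rRNA genes and deposited the counts unnormalized. The authors also deposited TPM computed from these counts. The deposited sample table gives the RNA integrity number (a score), the uniquely mapped fraction of reads and the sequencing lane. The strand setting and gene lengths are not given in the sources used here.

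Counts were tested with edgeR 4.0.16 in R 4.3.3 (genes kept by filterByExpr at 10 counts and 15 in total, TMM, robust quasi-likelihood fit, two-sided, Benjamini-Hochberg over all genes tested, threshold 0.05), in separate fits of the 6 libraries of each comparison, and in 1 fit of all 15 for the test over 5 days. The standard error is the log2 fold change divided by the square root of F. Replicates that do not overlap were judged on the scaling of each fit. CPM was computed with the TMM factors of all 15 libraries. Library totals of 11990302 to 33469703 counts and the spread between replicates set the precision.

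The genes, lists and tests were chosen with earlier results of these data known. All 10 genes are reported, and from other lists the direct partners and at most 4 called genes by size. The p53 targets of day 20 against day 0 are an exception, as all that were called are named. Alternatives were DESeq2 1.42.0, other scaling, no filter, limma 3.58.1 on log2 TPM, plate or lane as a block and each library left out. Coordinates come from GENCODE v44, promoters from RefSeq (GRCh38.p14), and exact tests from scipy 1.17.1. Single-cell, qPCR and animal data were not analysed here.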

Additional observations from a re-analysis of the deposited data

How the results depend on the processing

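Of the log2 fold changes of the 10 genes, those that changed sign under an alternative all missed the threshold there and in the reported fit. They were CCND3 on day 4 against day 0 (from −0.14 to 0.12 over libraries left out, −0.010 without the day 0 library numbered 1 and −0.14 without the day 4 library of plate 1), CCNE1 in the same comparison (−0.52 to 0.15, the latter without the day 0 library numbered 2), CDKN2C on day 11 against day 9 (−0.54 to 0.21, 0.16 without plate 2 of day 9 and 0.21 without plate 6 of day 11), CCND1 (−0.54 to 0.031) and CCND3 (−0.015 to 0.34) there without plate 6 of day 11, CCND1 on day 20 against day 11 (−0.29 to 0.54, −0.0056 without plate 6 of day 11 and −0.29 without plate 2 of day 20), CCND2 (−0.079 to 0.58) and CDKN1C (−0.12 to 1.23) there without plate 6_1 of day 20, and CCND3 on day 20 against day 0 (−0.19 to 0.88) without the same library. Each library left out in turn gave 0 to 573 genes past the threshold on day 11 against day 9 (495 with all), 0 to 510 on day 20 against day 11 (332) and 3128 to 8993 on day 20 against day 0 (6027). It gave 0 to 1 calls among the 10 genes on day 20 against day 11 (0 with all) and 2 to 7 on day 20 against day 0 (4), where the 2 were CDKN1A and CDKN2B without the day 0 library numbered 2 and the 7 came without the day 20 library labelled 2_3. DESeq2 called 1674 genes and 2 of the 10 on day 11 against day 9, and 1871 genes and 3 of the 10 on day 20 against day 11. No filter on low counts gave 64 genes on day 4 against day 0, 7 of the 10 on day 9 against day 4, and 1016 genes and 1 of the 10 on day 11 against day 9. All 15 libraries in one fit gave 6209 genes on day 9 against day 4 (10406 in the reported fit), 1 of the 10 on day 11 against day 9, 3132 genes and 3 of the 10 on day 20 against day 11, and 10785 genes and 7 of the 10 on day 20 against day 0. The cause of these shifts was not tested. Libraries share plate numbers in 2 pairs on days 9 and 11, whose deviations from the day means correlated at r = 0.10 and 0.30 across genes. On days 11 and 20 they do so in 3 pairs (r from −0.14 to 0.35). Pairs without a shared number gave r from −0.32 to 0.28 on days 9 and 11 and from −0.43 to 0.20 on days 11 and 20. Plates were taken to share only a number, which so few pairs cannot settle. With the plate as a replicate block, 1971 genes and 3 of the 10 (CDKN2B and CDKN1B higher, CCND1 lower) passed on day 11 against day 9, and 3 genes and none of the 10 on day 20 against day 11. The sequencing lane as a block gave 137 genes in the latter. The other comparisons share fewer than 2 plate pairs and had no such fit. The call over 5 days covered 5 to 8 of the 10 genes over 20 alternatives. Depth limits CDKN2A and CDKN2C most, at 0 to 5 reads per library on days 0 and 4.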

Other observations

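For 4 of the genes that varied over the days, the protein-coding genes of at least 5 CPM on any day whose log2 CPM followed them most closely were looked up. These are descriptions over libraries that share days, depth and batch. Over the 15 libraries, CDKN2B was most like CHRM2 (Pearson's r 0.977), TNNI1 (0.977) and ARHGAP31 (0.976), and without the library labelled 2_3 it was most like WWTR1 (0.979), PALLD (0.978) and TESK1 (0.977). CDKN1A was most like GNRH2 (0.976) and AMBP (0.960), and GNRH2 (0.979) and AMBP (0.972) also led without that library. CDKN2C was most like MTERF2 (0.942), SPEF2 (0.942) and STAT4 (0.936), and without the library most like MCEE (0.957), MARCHF5 (0.951) and GUCY1B1 (0.947), so none of its 3 nearest genes was the same. CDKN2A was most like MUC5AC (0.948), SLC6A4 (0.919) and PPP1R1C (0.915), and the first stood at 0.895 without that library.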
